A study of Homo sapiens with 6 samples.

Results

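The 6 mature arms of 3 neighbouring hairpins (hsa-miR-379-5p, hsa-miR-379-3p, hsa-miR-411-5p, hsa-miR-411-3p, hsa-miR-299-5p and hsa-miR-299-3p, written below without the species prefix) were examined among the 2576 mature miRNAs listed for each library. They were picked by name, as both arms of the first hairpins of the distal 14q32 miRNA cluster. The hairpins were chosen by their measured levels in whole cells against EV, so those levels are given as a description without tests. MIO-M1 is an established human Müller glial cell line, recorded as wild type, and the extracellular vesicles (EV) were those it released in culture. Whole cell RNA came from passages 22, 24 and 26 and EV RNA from passages 23, 25 and 27, which are called replicates 1, 2 and 3 of each group. All samples came from this 1 line, and no label ties an EV sample to a cell sample. Cultures were grown with serum, washed and, according to the labels, held in serum-free medium for 24 h before the vesicles were collected from the supernatant. The study's methods give a longer incubation in vesicle-depleted medium, and which applied to these samples is not known here.

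A miRNA hairpin is cut by Drosha and Dicer into a duplex of a 5p and a 3p arm. One arm is usually kept by an Argonaute protein, where bases 2 to 8, the seed, pair with target mRNAs, and the other arm is degraded. The distal 14q32 cluster lies in the imprinted DLK1-DIO3 region, is transcribed from the maternal chromosome as a long non-coding precursor and is best known for its expression in brain and placenta. Its hairpins are thought to have arisen by tandem duplication, and miR-379, miR-411 and miR-299 lead it.

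The mature sequences show how closely these neighbours are related. RefSeq on GRCh38.p14 held all 6 arms, on the plus strand of chromosome 14. The hairpins run from 101022066 to 101022132 (MIR379), 101023325 to 101023420 (MIR411) and 101023794 to 101023856 (MIR299), 1791 bases from the first to the last. GENCODE 29 places all of them inside the long non-coding gene MEG8, outside its exons. The seed is in capitals in each sequence, written 5′ to 3′.
miR-379-5p: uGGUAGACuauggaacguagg
miR-411-5p: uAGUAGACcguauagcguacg
miR-299-5p: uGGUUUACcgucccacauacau
miR-379-3p: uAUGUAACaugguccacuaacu
miR-411-3p: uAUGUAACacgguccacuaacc
miR-299-3p: uAUGUGGGaugguaaaccgcuu

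The 5p arms of miR-379 and miR-411 shared 14 of 21 bases from the 5′ end and differed at 1 seed base, G2A, counted from the 5′ end with the base of miR-379-5p first. The 5p arm of miR-299 shared 11 of 21 bases with miR-379-5p and differed from it at 2 seed bases. No other RefSeq human miRNA had the seed of miR-411-5p, miR-299-5p or miR-299-3p. The 3p arms of miR-379 and miR-411 had the same seed and differed only at U10C and U22C over 22 bases, with the base of miR-379-3p first. Reads of these near-identical 3p arms may be assigned to either one, so their counts are uncertain singly and are also given as a sum.

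The 6 libraries held from 396025 counts (whole cell replicate 1) to 3990900 (whole cell replicate 2), and the EV libraries from 1225541 to 3134561. Levels are given as CPM, the count per 1000000 counts of the same library. Where nothing was counted, up to 3 counts were held possible, equal to 2.45, 1.47 and 0.957 CPM in EV replicates 1, 2 and 3 and to as much as 7.58 CPM in the shallowest cell library. This limit covers counting error only. Of the miRNAs detected in a library, 50.9% to 53.6% had fewer than 10 counts in whole cells and 6.56% to 10.2% in EV. The summed level of 3 miRNAs known from Müller glia (miR-9-5p, miR-125b-5p and miR-204-5p) ran from 126934 to 131069 CPM in whole cells and from 46477 to 95760 CPM in EV, although 1 of the 3 was higher on average in EV. A list of 7 blood and endothelial miRNAs summed to between 258 and 1193 CPM in whole cells and between 1975 and 2942 CPM in EV, with all 7 higher on average in EV and miR-451a and miR-144-3p at 0 in all whole cell libraries. The liver miRNA miR-122-5p, 3 photoreceptor miRNAs and 3 muscle miRNAs also had higher sums in every EV library, at 91.2 to 200 CPM, 1151 to 1218 CPM and 91.4 to 349 CPM, against 7.58 to 11.2 CPM, 227 to 333 CPM and 22.7 to 35.1 CPM in whole cells. Of the photoreceptor and of the muscle miRNAs, 2 of 3 were higher on average in EV. The part of such RNA in the values of miR-379, miR-411 and miR-299 was not tested.

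The neighbouring arms moved in opposite directions. miR-379-5p, miR-411-5p and miR-299-3p were higher in every EV library than in every whole cell library, miR-299-5p and miR-379-3p were lower in every EV library, and the groups overlapped for miR-411-3p. The same was asked of all 430 miRNAs past the filter of 5 CPM in at least 3 libraries, on CPM scaled with TMM factors. Of these, 20.9% had EV wholly above whole cells and 27.4% had EV wholly below, 48.4% in all. Since the choice of the hairpins rested on this comparison, nothing is read from the count of their arms. All 6 arms passed this filter, miR-379-3p and miR-411-3p through their whole cell libraries. The median difference over the 430 miRNAs on log2(CPM + 4) was -0.45. Relative to that median, the differences ran from -3.11 for miR-299-5p to 4.72 for miR-411-5p.

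**Figure D1:**
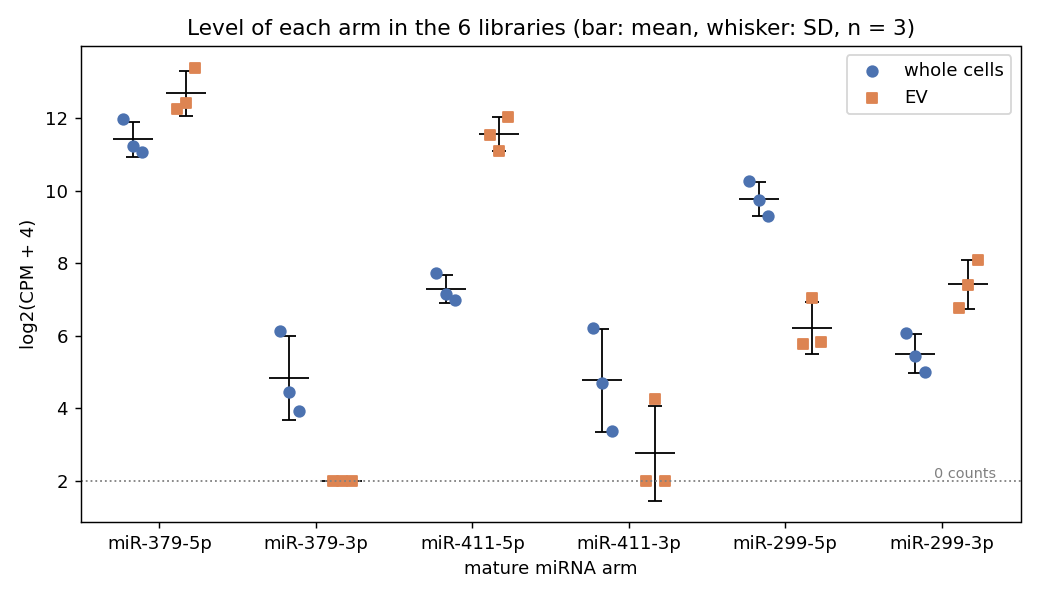
Level of each arm as log2(CPM + 4) in the 3 whole cell libraries (circles) and the 3 EV libraries (squares), with the group mean as a bar and the SD as whiskers. The EV points of miR-379-5p, miR-411-5p and miR-299-3p lie above all whole cell points, those of miR-299-5p and miR-379-3p lie below, and the dotted line marks 0 counts.

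miR-379-5p, the arm that gives the cluster its usual name of miR-379/miR-656, was the most abundant of the 6 arms in both groups. It had 4012, 2381 and 2143 CPM in whole cell replicates 1, 2 and 3, and 4890.1, 5394 and 10699 CPM in the EV replicates. The groups did not overlap, although EV replicate 1 exceeded whole cell replicate 1 by less than the range within either group. The mean was 2845 ± 1018 CPM (SD, n = 3) in whole cells and 6994 ± 3218 CPM in EV, a ratio of 2.46. On log2(CPM + 4) the difference was 1.26 ± 0.45 (SE). By mean CPM the arm ranked 51 of 2576 in whole cells and 28 in EV.

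The other arm of this hairpin, miR-379-3p, had 26, 70 and 14 counts in whole cells, or 65.7, 17.5 and 11.2 CPM. No EV library held a read of it. Against the limit of 3 counts in each EV library, which covers counting error only, its mean level was at least 19.35-fold lower in EV. Low arms varied among EV libraries by more than counting error, so this bound is not firm. In EV replicates 1, 2 and 3, miR-411-3p had 0, 31 and 0 counts and miR-380-5p had 49, 59 and 0. Whole cell replicate 1 held most of the group mean, and without it the bound was 8.83-fold and the difference on log2(CPM + 4) moved from -2.83 to -2.18.

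miR-411-5p showed the widest upward difference of the 6 arms. Whole cells held 82, 547 and 154 counts of it, or 207, 137 and 123 CPM. In EV it had 3610, 4472 and 13122 counts, or 2946, 2194 and 4186 CPM. The lowest EV library was far above the highest whole cell library. The mean was 156 ± 45.0 CPM (SD, n = 3) in whole cells and 3108 ± 1006 CPM in EV, a ratio of 19.96. The difference on log2(CPM + 4) was 4.27 ± 0.35 (SE), and with each library left out in turn it stayed between 4.03 and 4.50. Its rank by mean CPM was 151 in whole cells and 46 in EV.

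miR-411-3p was low and scattered in both groups. It had 28, 87 and 8 counts in whole cells, or 70.7, 21.8 and 6.39 CPM. EV replicate 2 held 31 counts, or 15.2 CPM, and EV replicates 1 and 3 held 0. The groups overlapped, and the difference on log2(CPM + 4), -2.01 ± 1.12 (SE), had a wide error for its size. It was -1.28 without whole cell replicate 1 and -2.76 without EV replicate 2. The sum of miR-379-3p and miR-411-3p does not depend on how counted reads were divided between them. It would miss any read left out for fitting both. This sum was 136, 39.3 and 17.6 CPM in whole cells and 0, 15.2 and 0 CPM in EV. On the sum, every EV library lay below every whole cell library. The margin between EV replicate 2 (31 counts) and whole cell replicate 3 (22 counts) was narrow for so few counts.

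miR-299-5p was the main arm of its hairpin in whole cells and was lower in EV. Whole cells held 483, 3398 and 787 counts, or 1220 CPM, 851 CPM and 629 CPM. In EV it had 62, 260 and 163 counts, or 50.6, 128 and 52.0 CPM. All EV libraries lay below all whole cell libraries by a wide margin. The mean was 899.9 ± 299 CPM (SD, n = 3) in whole cells and 76.7 ± 44.0 CPM in EV, 11.7 times lower. The difference on log2(CPM + 4) was -3.56 ± 0.50 (SE), and its rank by mean CPM was 77 in whole cells and 207 in EV.

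miR-299-3p, which pairs with miR-299-5p in the same hairpin, was higher in EV. It had 25, 157 and 35 counts in whole cells, or 63.1, 39.3 and 28.0 CPM. In EV it had 127, 335 and 838 counts, or 104, 164 and 267 CPM. The mean was 43.5 ± 17.9 CPM (SD, n = 3) in whole cells and 178 ± 82.8 CPM in EV, a ratio of 4.10. The difference on log2(CPM + 4) was 1.91 ± 0.49 (SE).

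The order of the levels changed between the groups. The arms have 21 or 22 bases, so CPM was compared between arms without a correction for length. Whether all arms were captured equally well in the libraries was not tested, so the order is that of read counts. In whole cells the order was miR-379-5p, miR-299-5p, miR-411-5p, miR-299-3p, miR-379-3p and miR-411-3p, and the ranges of the last 3 overlapped from neighbour to neighbour. In EV it was miR-379-5p, miR-411-5p, miR-299-3p, miR-299-5p, miR-411-3p and miR-379-3p. There the ranges of the arms of miR-299 overlapped, and so did those of the 3p arms of miR-411 and miR-379.

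Ratios of counts within a library do not depend on the scaling, and they were close among whole cell libraries. There were 19.4, 17.4 and 17.4 counts of miR-379-5p for each count of miR-411-5p in the whole cell replicates, and 1.66, 2.46 and 2.56 in the EV replicates. For each count of miR-299-5p there were 3.29, 2.80 and 3.41 counts of miR-379-5p in whole cells. In EV the same ratio was 96.7, 42.3 and 206. In EV the ratio to miR-411-5p thus lay below all whole cell ratios, and the ratio to miR-299-5p lay above them.

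The balance of arms within each hairpin was given as the percentage of its counts on the 5p arm, with a 95% Wilson interval that covers counting error only. For miR-299 the 5p share was 95.1% (92.8% to 96.6%, of 508 counts), 95.6% (94.9% to 96.2%, of 3555) and 95.7% (94.1% to 96.9%, of 822) in the whole cell replicates. In EV it was 32.8% (26.5% to 39.8%, of 189 counts), 43.7% (39.8% to 47.7%, of 595) and 16.3% (14.1% to 18.7%, of 1001). The 5p arm was thus the major arm in all whole cell libraries and the minor arm in all EV libraries. The mean was 95.5% ± 0.346 (SD, n = 3) in whole cells and 30.9% ± 13.8 in EV, and the EV libraries differed from each other by more than their counting error.

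The 5p arm was the major arm of miR-379 and miR-411 in all 6 libraries. For miR-379 it took 98.4%, 99.3% and 99.5% of the counts in whole cells. In EV it took all of them. With up to 3 counts held possible for a count of 0, the 3p share was up to 0.0501%, 0.0273% and 0.00895% in replicates 1, 2 and 3. This limit covers counting error only and is not the Wilson interval. For miR-411 the 5p share was 74.5% (65.7% to 81.8%, of 110 counts), 86.3% (83.4% to 88.7%, of 634) and 95.1% (90.6% to 97.5%, of 162) in whole cells. In EV it was 100%, 99.3% and 100%. The whole cell intervals of replicates 1 and 3 did not overlap, so this share varied among whole cell libraries.

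**Figure D2:**
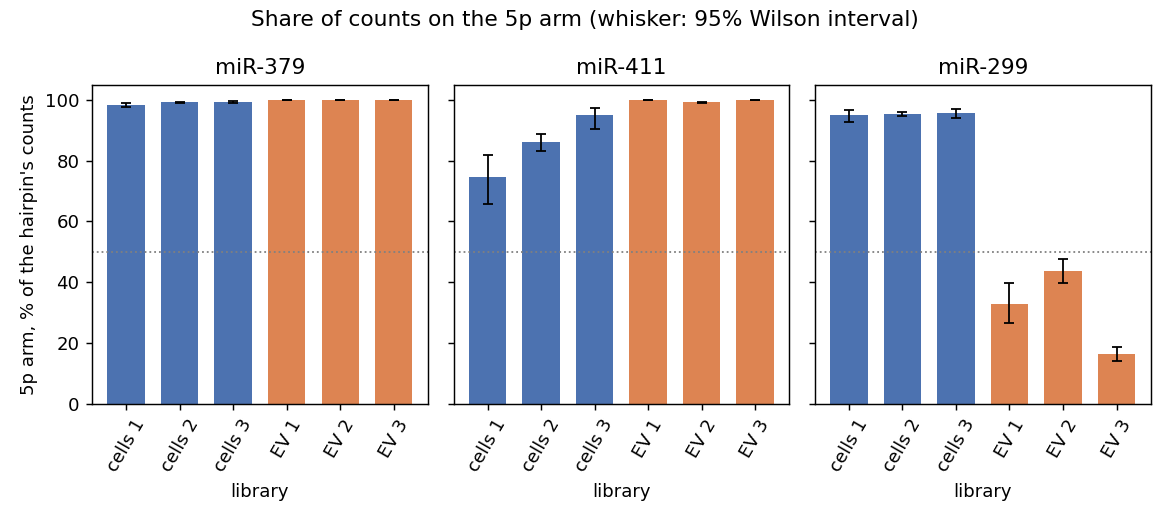
Percentage of each hairpin's counts on the 5p arm, by library (bars, whole cell replicates 1 to 3 and then EV replicates 1 to 3), with 95% Wilson intervals as whiskers. The miR-299 bars fall from 95.1% to 95.7% in whole cells to between 16.3% and 43.7% in EV, while those of miR-379 and miR-411 stay above the dotted line at 50%.

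The same share was computed for the 128 hairpins with both arms named and at least 20 counts in every library. The groups did not overlap for 39.1% of these hairpins, miR-379, miR-411 and miR-299 among them. The median absolute difference between the group means was 2.24 percentage points. The share of miR-299 differed by -64.5 points, EV minus whole cells, the fifth widest of the 128. miR-411 ranked 26, at 14.5 points, and miR-379 ranked 80, at 0.953 points. The shares of these 3 hairpins came from the counts that chose them, so their place in these comparisons is a description only. In 8 of the 128 hairpins the major arm was one in every whole cell library and the other in every EV library, and miR-299 was one of these. Of the 23 other 14q32 hairpins with this share, only miR-487a and miR-377, both of the distal cluster, were among these. Their mean 5p shares were 81.0% and 78.4% in whole cells and 0% and 2.22% in EV. In EV, miR-487a-5p had no counts beside 28, 42 and 165 of miR-487a-3p, and miR-377-5p had 0, 46 and 0. The major arm of miR-130b also changed from 5p to 3p, whereas those of miR-424, miR-193b, miR-423 and miR-628 changed from 3p to 5p. These hairpins were named after their values were seen.

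**Figure D3:**
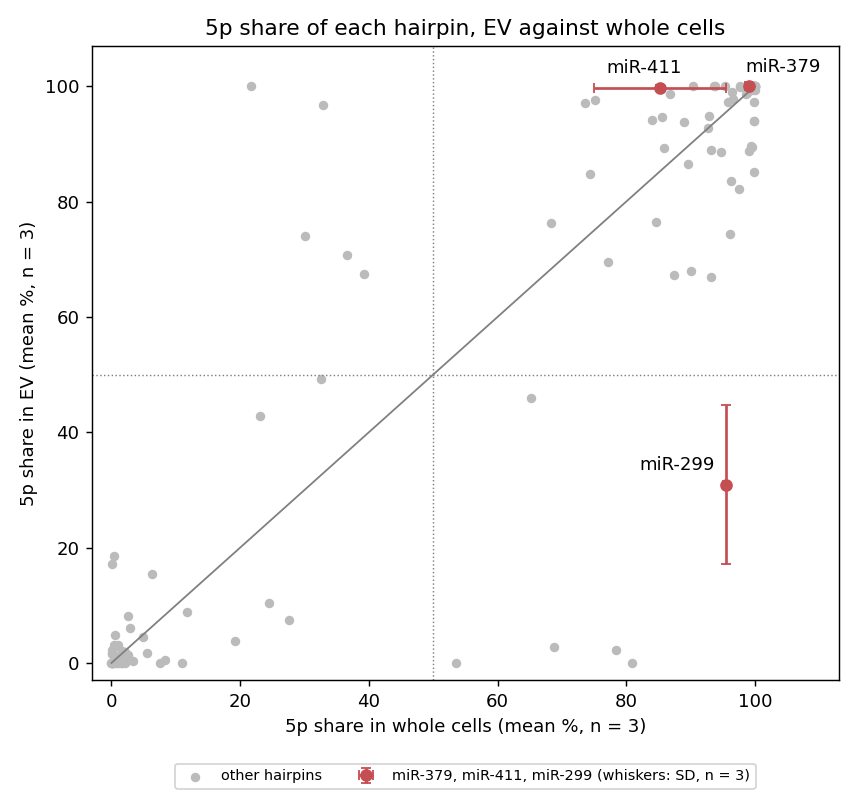
Mean 5p share of 128 hairpins in whole cells (x axis, %) against EV (y axis, %), with the line of equality and dotted lines at 50%. miR-299 lies at 95.5% and 30.9%, far below the line, whereas miR-411 and miR-379 lie near the top right corner; whiskers on these 3 are the SD.

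Summed over both arms, miR-379 and miR-411 were higher in EV and miR-299 was lower, in the direction of the 5p arm of each. miR-379 had 2877 ± 1047 CPM (SD, n = 3) in whole cells and 6994 ± 3218 CPM in EV, and miR-411 had 189 ± 78.6 CPM and 3114 ± 999 CPM. For miR-299 the sum was 943 ± 316 CPM in whole cells and 255 ± 88.5 CPM in EV. In CPM, miR-299-3p was higher in EV by less than miR-299-5p was lower. The groups did not overlap for any of these 3 sums.

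The other miRNAs of the 14q32 cluster were listed by hairpin name, 85 mature arms in all, of which 67 passed the filter. They were tested in edgeR's quasi-likelihood fit over the 430 miRNAs, where a call needed an adjusted p (Benjamini-Hochberg) below 0.01 together with a log2 fold change of 2.5 or more in either direction. Of the 67, 4 (5.97%) were called higher and 1 (1.49%) lower, against 4.42% higher and 1.4% lower of all miRNAs tested, 5.81% in all. On CPM scaled with TMM factors, EV lay wholly above whole cells for 15 of them (22.4%, against 20.9% of all). EV lay wholly below for 19 of them (28.4%, against 27.4% of all). Their median log2 fold change was -0.15, against -0.23 over all miRNAs tested. These counts were near those over all miRNAs.

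The called arms came from both parts of the cluster. miR-136-3p, from the proximal part of the cluster, had 8, 33 and 6 counts in whole cells and 398, 779 and 730 in EV (log2 fold change 4.95, adjusted p = 0.00511 by edgeR). miR-889-3p followed with a log2 fold change of 4.24 (adjusted p = 0.00661 by edgeR), miR-376a-3p with 4.16 (0.00315) and miR-382-3p with 3.74 (0.00427). The arm called lower was miR-493-5p, with 1509, 13526 and 3918 counts in whole cells and 462, 1465 and 645 in EV (log2 fold change -3.05, adjusted p = 0.00448 by edgeR). Fewer were called with most libraries left out. By edgeR none was called without EV replicate 2 (23 of 62 tested at an unadjusted p below 0.05), without whole cell replicate 2 (14 of 62) or without whole cell replicate 3 (15 of 63), and 1 was called higher without EV replicate 1 or without EV replicate 3.

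miR-380, the next hairpin after miR-299, had few counts. RefSeq holds its arms with seeds that differ by 1 base from those of miR-379, and they are shown for comparison with the sequences above.
miR-380-5p: uGGUUGACcauagaacaugcgc
miR-380-3p: uAUGUAAUaugguccacaucuu
miR-380-5p had 0, 23 and 5 counts in whole cells and 49, 59 and 0 in EV, and the groups overlapped. miR-380-3p had 1 count in whole cell replicate 1 and 0 in the other libraries.

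As shares of all 14q32 counts, miR-379 and miR-411 lay higher in EV and miR-299 lay lower. All 14q32 arms together held 8.06%, 9.23% and 10.1% of the counts in the whole cell replicates and 6.15%, 7.29% and 7.77% in the EV replicates. Of these cluster counts, miR-379 held 5.06%, 2.60% and 2.14% in whole cells and 7.95%, 7.40% and 13.8% in EV. miR-411 held 0.345%, 0.172% and 0.129% in whole cells and 4.79%, 3.03% and 5.38% in EV. For miR-299 the shares were 1.59%, 0.965% and 0.653% in whole cells and 0.251%, 0.400% and 0.411% in EV. The groups did not overlap for any of these 3 hairpins, whose levels were among those that chose them.

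**Figure D4:**
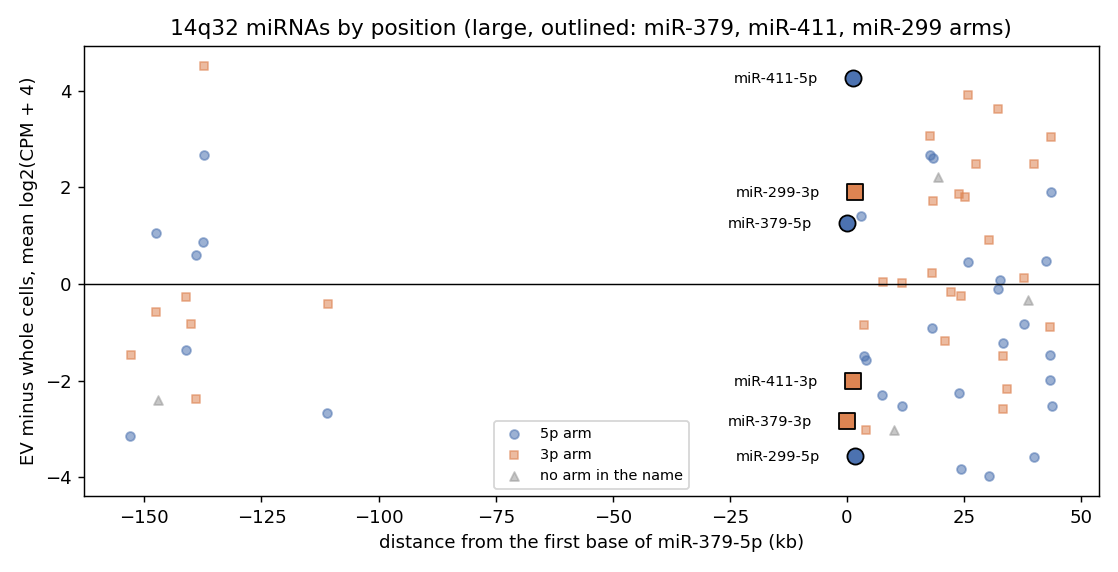
Difference between the EV and whole cell means of log2(CPM + 4) for 69 arms of the 14q32 cluster with 1 annotated locus, by distance from the start of miR-379-5p (kb, from the deposited positions). The outlined arms of the 3 hairpins span from -3.56 (miR-299-5p) to 4.27 (miR-411-5p) at nearly the same position, and other 5p and 3p arms lie on both sides of 0.

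Some sequence features were shared by arms that differed in opposite directions. All 6 began with U, as did 36.8% of RefSeq human mature miRNAs. All but miR-379-3p had 10 G or C bases, and the differences of these arms on log2(CPM + 4) ran from -3.56 to 4.27. The 60 other tested miRNAs with 10 G or C bases had a median difference of 0.19, with percentiles 10 and 90 at -2.28 and 2.22. miR-379-3p had 8 G or C bases and a difference of -2.83, and the 37 other miRNAs with 8 had a median of 1.22. The part of base content in these differences was not tested. The motif GGAG, known from work on miRNA sorting into vesicles and searched on the miRNA strand, was in none of the 6 arms and in 15.7% of RefSeq human mature miRNAs.

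The miRNAs with the profile most like each arm were found by the root mean square difference of log2(CPM + 4) over the 6 libraries, after each miRNA's own mean was removed. miR-379-5p was closest to miR-26b-3p (0.16) and miR-337-5p (0.29), the latter from the proximal 14q32 cluster. miR-411-5p was closest to miR-374a-3p and miR-3613-5p (0.41 each). In whole cells miR-374a-3p averaged only 0.0835 CPM and miR-3613-5p 4.41 CPM, so the pseudocount of 4 narrowed their differences. miR-299-3p was closest to miR-27a-3p (0.21) and miR-148b-5p (0.24). miR-299-5p was closest to miR-493-5p of the proximal cluster (0.38) and to miR-29c-5p (0.42), the latter listed at 0 in EV. The nearest profiles to miR-379-3p were miR-500b-5p (0.29) and miR-4521 (0.31), both listed at 0 in EV, and those to miR-411-3p were miR-664a-3p (0.47) and miR-22-3p (0.53). None of the 6 arms had another of them among its nearest profiles.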

How the data were processed

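Small RNA was sequenced from 3 whole cell and 3 EV samples of MIO-M1 with a QIAseq miRNA library kit. The study's methods name an RNeasy total RNA kit for cell pellets and a Total Exosome RNA Isolation Kit for EV. They also describe RNase A treatment of intact EV. Extraction thus differed with the fraction, and the effects of the 2 on these values cannot be told apart. The authors trimmed adapters with Cutadapt, aligned reads to miRBase and deposited raw counts of reads for each mature miRNA. According to their headers, these tables were made by featureCounts (1.5.0-p1, strand setting 1) from a Bowtie 1 alignment with the annotation of miRBase 20, whereas the methods name Bowtie2 and a later release. The header names no genome build, so sequences and positions are those of RefSeq, matched by name. The sources used here name no step that merged copies of a molecule, so each count is a read. The allowed number of mismatches is not given in the sources used here.

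CPM used the total count of each library, except where miRNAs with EV wholly above or wholly below were counted over a list, which used TMM factors. miRNAs with 5 CPM in at least 3 of 6 libraries were tested with edgeR 4.0.16 (TMM factors, quasi-likelihood test) in R 4.3.3, and DESeq2 1.42.0 was an alternative. Both were tested on simulated data. Log2 values used a pseudocount of 4. The share of 5p reads had Wilson intervals. Python 3.11.15 and matplotlib 3.10.9 were used for the remaining steps. Libraries were grouped by the fraction named in their labels, and replicates were numbered in the order of the samples. No label states that the samples were separate cultures beyond their passage, so p-values measure the spread between these samples. No pair of libraries agreed within sampling noise (chi-square per degree of freedom of 21.5 or more).

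The arms and the lists of other 14q32 miRNAs and of cell type markers were chosen with earlier results of these data known. The named miRNAs were the 6 arms, the arms of miR-380, at most 5 called 14q32 arms in each direction, and the 2 nearest profiles of each arm. Other hairpins with a changed major arm were named after their values were seen. Of the tested miRNAs, 390 (90.7%) had a RefSeq sequence for the count of G and C bases. Alternatives covered the tool, normalization, filter, threshold, pseudocount, depth and each library left out in turn.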

Additional observations from a re-analysis of the deposited data

How the results depend on the processing

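All 6 arms kept their direction on log2(CPM + 4) with a pseudocount of 1, TMM or RLE scaling, thinning to 396025 counts and each library left out in turn. With a pseudocount of 1, miR-379-3p moved to -4.63, by more than the pooled SD of its libraries, and miR-411-3p to -3.18, by less than that SD but more than the SE of its difference. No other of these values moved by more than the SD. The median of all tested miRNAs was -0.45 with library totals and with TMM, and -0.63 with RLE. With each library left out, the differences ran from 0.91 to 1.54 for miR-379-5p, -3.28 to -2.18 for miR-379-3p, 4.03 to 4.50 for miR-411-5p, -2.76 to -1.28 for miR-411-3p, -3.98 to -3.32 for miR-299-5p and 1.57 to 2.24 for miR-299-3p. The 5p share of miR-299 ran from 24.5% to 38.3% in EV and from 95.3% to 95.7% in whole cells.

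Counts of calls moved more, and the cause was not tested. Over all miRNAs 19 were called higher and 6 lower. DESeq2 called 42 and 30, and an adjusted p below 0.05 gave 51 and 42. Lower calls numbered 10 with RLE factors, 16 with library totals and 22 with no filter. With a library left out there were 0 to 17 higher and 0 to 6 lower calls, and by edgeR both were 0 without EV replicate 2 (153 miRNAs at an unadjusted p below 0.05) and without whole cell replicate 2 (81). Without EV replicate 1, EV replicate 3 or whole cell replicate 3 there were 6, 5 and 5 higher calls and 1 lower call each. Among other 14q32 miRNAs, 4 higher and 1 lower became 10 and 5 at an adjusted p below 0.05. Lower calls were 6 with DESeq2, 2 with RLE factors, 2 with library totals and 3 with no filter. Leaving out a library gave 0 to 4 higher and 0 to 2 lower. With no filter, 199 in place of 118 miRNAs had EV wholly below whole cells, with more miRNAs counted. No paired analysis was possible because the groups share no replicate or passage number in the labels. Depth limits the 3p arms of miR-379 and miR-411 most, since their whole cell counts were 87 or fewer.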
